A study of Homo sapiens with 18 samples.

Results

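The genes described here are 38 genes of epithelial junctions, keratins and epithelial identity, out of 31004 genes in the count table. They were chosen by name, without a cutoff on any measured value but with earlier results of these data known. All 38 symbols were found. By role they comprised 4 genes of adherens junctions and epithelial adhesion, 12 of tight junctions, 7 of desmosomes, 6 keratins and 9 regulators and other identity genes. RNA was sequenced from HCT116, an established human colorectal carcinoma line of epithelial origin, in 6 groups of 3 libraries described as biological replicates. The cells carried lentivirally delivered, puromycin-selected constructs for CRLM1, a long noncoding RNA encoded by LINC01767, for its antisense sequence (Antisense), or an empty control (Ctrl). Each background received a plasmid for hnRNPK, an RNA- and DNA-binding protein, or its negative control (NC), which gave the groups Ctrl_NC, CRLM1_NC, Antisense_NC, Ctrl_hnRNPK, CRLM1_hnRNPK and Antisense_hnRNPK. The 3 backgrounds were selected separately, so an effect of a construct and a difference between selected populations cannot be told apart, and in bulk RNA fewer expressing cells and less RNA per cell cannot be told apart either.

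Epithelial cells are held together by several junction types. Adherens junctions are built from E-cadherin and the catenins that connect it to actin, tight junctions seal the space between cells with claudins, occludin and the ZO scaffold proteins, and desmosomes anchor the keratin filaments of neighbouring cells to each other. Keratins 8, 18 and 19 form the filaments of simple epithelia such as the colon lining, and transcription and splicing factors such as GRHL2, ELF3, CDX2 and the ESRP proteins maintain epithelial and intestinal identity.

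Total counts ranged from 19732681 to 27039520 per library. LINC01767 had 0 counts in every Ctrl library, 598 ± 11.7 CPM in CRLM1_NC and 49.3 ± 0.565 CPM in Antisense_NC (SD, n = 3), where CPM is the count scaled to a common library size by TMM over the 18 libraries. HNRNPK was at 471 ± 8.73 CPM in Ctrl_NC and at 626, 656 and 490 CPM in the Ctrl_hnRNPK libraries. It was at 457 ± 4.09 CPM in CRLM1_NC and at 677, 717 and 581 CPM in CRLM1_hnRNPK. In the Antisense background it was at 426 ± 5.84 CPM in Antisense_NC and at 534, 532 and 573 CPM in Antisense_hnRNPK. The third library of Ctrl_hnRNPK and that of CRLM1_hnRNPK stood apart from their groups, with a median correlation of 0.962 and 0.958 with their own group and of 0.985 and 0.98 with the NC libraries of their background. The hnRNPK comparisons are therefore counted with all libraries and without the third hnRNPK library. All 6 epithelial markers were present in every group, with a summed level between 3460 and 9440 CPM per library. Leukocyte and endothelial markers were near 0, with 4 of 5 leukocyte markers in the table and sums of at most 0.593 and 0.741 CPM. Of 5 fibroblast markers, 4 were under 1 CPM in every library and COL1A1 carried nearly all of a sum between 11.4 and 32.4 CPM.

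The level of the members was first ranked in FPKM, which is scaled to transcript length and so can be compared between genes. Keratins came first. KRT19 had the highest mean over the 18 libraries at 1370 FPKM, followed by KRT8 at 743 FPKM and its filament partner KRT18 at 314 FPKM. Next were LSR (angulin-1, of tricellular tight junctions) at 172 FPKM, JUP (plakoglobin, of desmosomes and adherens junctions) at 168 FPKM, CLDN7 (a claudin) at 153 FPKM and EPCAM (an epithelial adhesion molecule) at 125 FPKM. The ranges over libraries of those 4 genes overlapped each other, so their order is not a fixed one. E-cadherin, CDH1, was lower at 20.7 FPKM, with a range of 13.16 to 30.79 FPKM over the libraries. At the low end of the tested members were CDX2, the intestinal homeobox factor, at 1.52 FPKM, GRHL2 at 1.41 FPKM and MUC1, a membrane mucin, at 0.297 FPKM. CLDN1, KRT20 and VIL1 had means of 0.0106, 0.0939 and 0.0339 FPKM and at most 7, 17 and 22 counts in any library. These 3 genes did not pass the filter on low counts, apart from VIL1 in the fits that hold Antisense_hnRNPK, so 35 or 36 of the 38 members were tested.

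**Figure D1:**
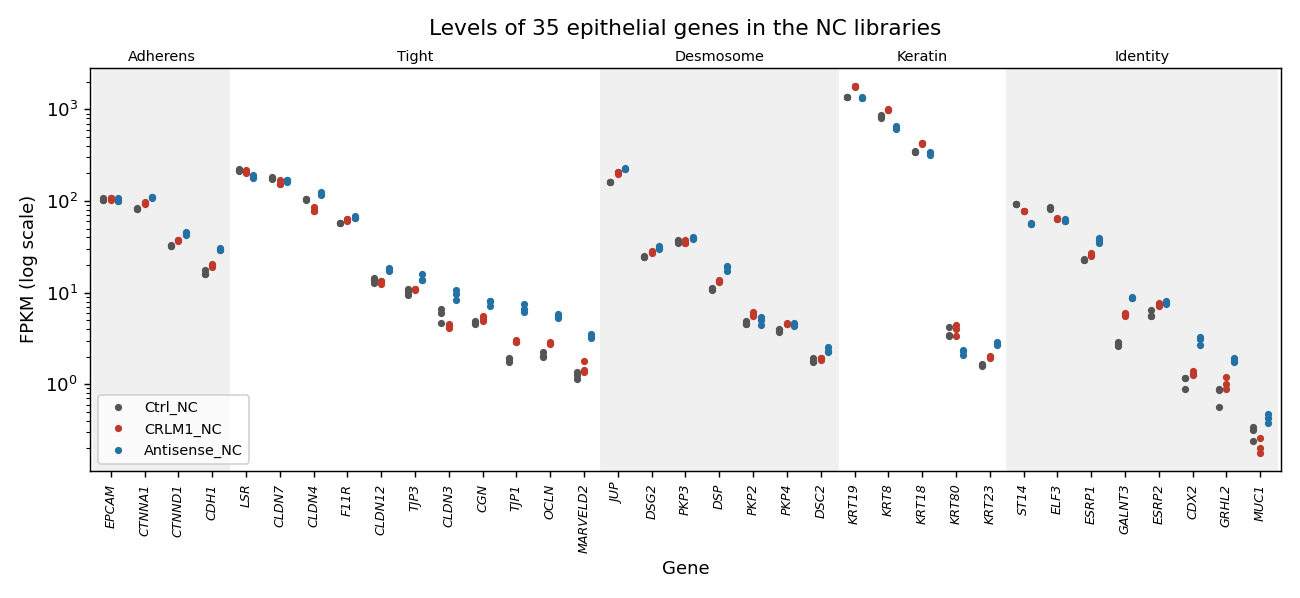
Level in FPKM (log axis) of the 35 tested members in the 9 NC libraries, one point per library coloured by background, with members grouped by role and ordered by level. KRT19, KRT8 and KRT18 lie above the other members, and Antisense_NC lies above the other backgrounds for TJP1, OCLN, MARVELD2, GALNT3 and CDX2.

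The first question was how the 3 backgrounds differed in the absence of the hnRNPK plasmid. Antisense_NC stood farthest from Ctrl_NC, with higher TJP1, GALNT3, CDX2, MARVELD2, OCLN and GRHL2 and lower ST14, KRT80, ELF3 and KRT8. Genes were called at an adjusted p of at most 0.05, from edgeR's quasi-likelihood test and the Benjamini-Hochberg method applied over the whole table, on which basis 19 of 35 members were higher in Antisense_NC, where 34.4% of all genes tested were, and 10 were lower, where 32.2% of all genes were. At least 2-fold differences were found in 6 of 35 members and in 14.1% of all genes. The median log2 fold change was 0.17 over the members and -0.0025 over all genes. Both counts moved with the processing. After removal of the trend with GC content and length, 17 members were higher and 15 lower, with medians of 0.12 over the members and -0.022 over all genes. By limma-trend on log2(FPKM + 0.1), 24 were higher and 5 lower, where the median of all genes was itself 0.18. Shares of all genes are not given for these alternatives, nor below for counts by role between backgrounds after that removal. Such counts do not set the members apart from other genes. With RLE in place of TMM scaling factors, 34 of the 35 members kept the same result.

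CRLM1_NC was closer to Ctrl_NC. GALNT3, TJP1 and OCLN were the most raised members and CLDN3, ELF3 and CLDN4 the most reduced of those called. Here 14 of 35 members were higher (16.9% of all genes) and 7 were lower (17.4% of all genes), with a median of 0.12 over the members and 0.0059 over all genes. At least 2-fold differences were found in 1 of 35 members, GALNT3, and in 1.58% of all genes. GALNT3 lay at that threshold, with a log2 fold change between 0.8591 and 1.05 over all fits. In a single fit of all 18 libraries GALNT3 alone was called (log2 fold change 1.02, adjusted p = 0.0234, edgeR's quasi-likelihood test), against 16 members for Antisense_NC against Ctrl_NC. Calls were few over all genes too in that fit of CRLM1_NC against Ctrl_NC, 102 of 15668. The number over all genes for Antisense_NC against Ctrl_NC is not given here. By limma-trend on log2(FPKM + 0.1), 17 members were higher and 4 lower, where 4033 of 16683 genes were called in either direction.

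CRLM1_NC was also compared with Antisense_NC, the control that carries the reverse sequence. In this comparison 10 of 35 members were higher in CRLM1_NC (26.9% of all genes) and 15 were lower (29.5% of all genes), with medians of -0.073 over the members and -0.0034 over all genes. At least 2-fold differences were found in 2 of 35 members, TJP1 and CDX2, and in 7.18% of all genes. By limma-trend on log2(FPKM + 0.1) the split was 6 higher and 22 lower, with the median of all genes at -0.13. The share of all genes called in that fit is not given here. CRLM1_NC against Ctrl_NC and against Antisense_NC share the CRLM1_NC libraries, and Antisense_NC against Ctrl_NC shares a group with each, so the 3 sets of values are given side by side and are not independent.

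**Figure D2:**
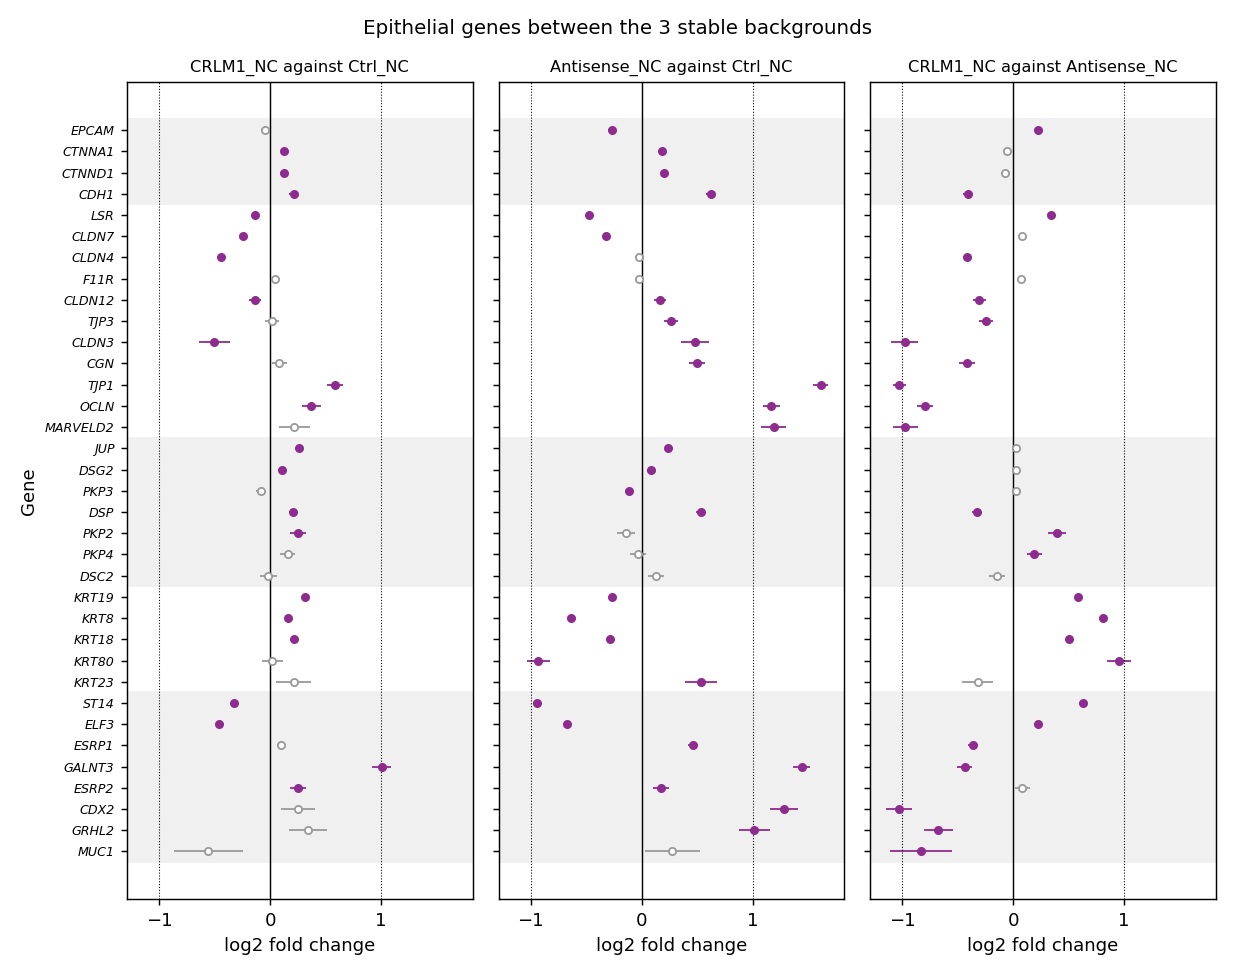
Log2 fold change of each tested member between the backgrounds without the hnRNPK plasmid, by edgeR on counts. Bars are standard errors, filled points have an adjusted p of at most 0.05 and dotted lines mark 2-fold. TJP1, GALNT3 and CDX2 lie farthest above 0 for Antisense_NC against Ctrl_NC, and GALNT3 for CRLM1_NC against Ctrl_NC.

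TJP1 and CDX2 were the members at least 2-fold apart in both comparisons that hold Antisense_NC. In CRLM1_NC against Antisense_NC they lay near that threshold and did not pass it in every fit. Over all fits the log2 fold change ran from -1.157 to -0.8665 for TJP1 and from -1.131 to -0.7901 for CDX2. Their RefSeq promoter windows are shown because they contain no annotated exon. TJP1 spans chr15:29699367-29968915 and CDX2 chr13:27960918-27969315, both on the minus strand of GRCh38. Each window is the 250 bases before the first listed RefSeq start in GRCh38.p14, read 5′ to 3′ on the minus strand, with capitals for the E-box hexamer CAGGTG or CACCTG, which is the letter pattern bound by Snail and ZEB repressors and was searched on both strands (the 2 spellings are the same site).
TJP1, chr15:29969050-29969299: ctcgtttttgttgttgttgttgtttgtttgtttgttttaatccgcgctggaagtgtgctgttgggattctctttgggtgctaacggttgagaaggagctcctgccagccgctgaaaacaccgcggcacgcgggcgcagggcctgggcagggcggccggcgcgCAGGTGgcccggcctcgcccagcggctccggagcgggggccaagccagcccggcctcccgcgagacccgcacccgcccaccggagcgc
CDX2, chr13:27969316-27969565: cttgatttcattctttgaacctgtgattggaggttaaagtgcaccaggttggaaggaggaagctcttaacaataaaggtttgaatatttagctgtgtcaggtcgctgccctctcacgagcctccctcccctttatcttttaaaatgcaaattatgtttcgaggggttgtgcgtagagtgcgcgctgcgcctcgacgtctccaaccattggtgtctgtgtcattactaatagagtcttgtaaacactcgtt
The TJP1 window held 1 such hexamer, at position -88 counted from the start, and its 3 windows at other starts held none. The CDX2 window held none. Windows were found for 23 of 38 members, 36 windows in all, some of which overlap within a gene. At least 1 window held the hexamer in 11 of the 23 members (47.8%), compared with 20.6% of the 27305 genes in the table, and counted by window the shares were 36.1% and 17.5%. The grainyhead letters AACCGGTT, searched in the same windows, were in 0 of the 36 and in 0.117% of all windows. A match describes letters only and says nothing about binding in these cells.

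Among tight junction genes, TJP1 encodes ZO-1, the scaffold that ties claudins and occludin to actin. TJP1 measured 27.1, 24.6 and 25.9 CPM in Ctrl_NC, 39.1, 40.3 and 38.3 CPM in CRLM1_NC and 79.4, 89 and 74.5 CPM in Antisense_NC. The 3 groups did not overlap, and every Antisense_NC library lay far above the others. TJP1 was 1.5-fold higher in CRLM1_NC than in Ctrl_NC (log2 0.59, SE 0.072, adjusted p = 1.85e-08) and 3.07-fold higher in Antisense_NC (log2 1.62, SE 0.067, adjusted p = 5.63e-22). OCLN, which encodes the barrier protein occludin, was at 18.4, 19.1 and 20.9 CPM in Ctrl_NC, at 25.8, 24.9 and 25.8 CPM in CRLM1_NC and at 43, 46.7 and 45.2 CPM in Antisense_NC. Again the groups were separate and in the same order. OCLN was raised by 0.37 on the log2 scale in CRLM1_NC (adjusted p = 0.00065) and by 1.17 in Antisense_NC (adjusted p = 3.11e-16). MARVELD2 encodes tricellulin, which seals the corners where cells meet, and lies next to OCLN on chromosome 5. It measured 7.92, 7.16 and 8.6 CPM in Ctrl_NC and 18.1, 19.5 and 17.6 CPM in Antisense_NC, a log2 difference of 1.19 (adjusted p = 8.85e-12). CRLM1_NC, at 8.76, 8.3 and 10.8 CPM, overlapped Ctrl_NC (adjusted p = 0.24).

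The claudins, which form the seal itself, went different ways. CLDN3 was at 10.9, 12.2 and 8.43 CPM in Ctrl_NC, at 7.19, 7.53 and 7.83 CPM in CRLM1_NC and at 15.3, 13 and 17 CPM in Antisense_NC. The groups did not overlap, with CRLM1_NC the lowest. CLDN3 was lower in CRLM1_NC than in Ctrl_NC by a log2 fold change of -0.50 (adjusted p = 0.00414), a call that was lost after removal of the GC and length trend (-0.33, adjusted p = 0.0602), and lower than in Antisense_NC by -0.98 (adjusted p = 1.3e-08). CLDN4 measured 627, 619 and 629 CPM in Ctrl_NC, 453, 453 and 485 CPM in CRLM1_NC and 612, 609 and 664 CPM in Antisense_NC. Every CRLM1_NC library was below both other groups, whereas Antisense_NC overlapped Ctrl_NC. The log2 fold changes of CLDN4 were -0.45 against Ctrl_NC (adjusted p = 5.21e-15) and -0.41 against Antisense_NC (adjusted p = 2.93e-12). CLDN7 was lower in both CRLM1_NC and Antisense_NC than in Ctrl_NC, by log2 fold changes of -0.25 and -0.32, the latter not called by limma-trend on log2(FPKM + 1) (-0.086). In all, 2 of 11 tested tight junction genes were higher and 5 lower in CRLM1_NC against Ctrl_NC, where 16.9% and 17.4% of all genes were, and 7 were higher and 2 lower in Antisense_NC against Ctrl_NC, where 34.4% and 32.2% of all genes were. After removal of the GC and length trend these counts were 2 and 3, and 6 and 4.

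Of the adherens junction and adhesion genes, 3 of 4 were higher in CRLM1_NC than in Ctrl_NC and the same number in Antisense_NC (16.9% and 34.4% of all genes), with 2 of 4 in each after removal of the GC and length trend. CDH1, the adhesion receptor E-cadherin, was at 112, 114 and 124 CPM in Ctrl_NC, at 132, 142 and 136 CPM in CRLM1_NC and at 181, 189 and 182 CPM in Antisense_NC. The 3 groups did not overlap. CDH1 was higher by 0.21 on the log2 scale in CRLM1_NC (adjusted p = 0.000161) and by 0.62 in Antisense_NC (adjusted p = 1.7e-15). The catenins CTNNA1 and CTNND1, which hold cadherins to actin and at the membrane, were higher by 0.12 each in CRLM1_NC and by 0.18 and 0.20 in Antisense_NC, although for CTNND1 that removal ended the call in CRLM1_NC (0.024) and turned the direction in Antisense_NC to -0.13. EPCAM went the other way in Antisense_NC, with a log2 fold change of -0.27 against Ctrl_NC (adjusted p = 6.25e-08) that was not called by limma-trend on log2(FPKM + 1) (-0.0305), and had -0.046 in CRLM1_NC (adjusted p = 0.31).

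JUP and DSP, both of the desmosome plaque, were higher in both construct backgrounds than in Ctrl_NC. JUP, plakoglobin, was at 849, 853 and 853 CPM in Ctrl_NC, at 1060, 1050 and 985 CPM in CRLM1_NC and at 1050, 1010 and 1040 CPM in Antisense_NC. Both construct groups lay above Ctrl_NC and overlapped each other. The log2 fold change of JUP was 0.26 in CRLM1_NC (adjusted p = 2.16e-09) and 0.24 in Antisense_NC (adjusted p = 7.87e-09). DSP, desmoplakin, which joins the plaque to keratin filaments, was higher by 0.20 in CRLM1_NC (adjusted p = 3.25e-05) and by 0.53 in Antisense_NC (adjusted p = 4.58e-14). Counting all 7 desmosome genes, 4 were higher in CRLM1_NC than in Ctrl_NC (DSP, JUP, PKP2 and DSG2), where 16.9% of all genes were, and 3 were higher and 1 was lower in Antisense_NC (34.4% and 32.2% of all genes). After removal of the GC and length trend, 3 were higher in CRLM1_NC, and 3 were higher and 4 lower in Antisense_NC.

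Simple epithelial keratins were higher in CRLM1_NC and lower in Antisense_NC than in Ctrl_NC. Of 5 tested keratins, 4 were higher in CRLM1_NC than in Antisense_NC (26.9% of all genes). Against Ctrl_NC, 3 were higher in CRLM1_NC (16.9% of all genes), and 1 was higher and 4 lower in Antisense_NC (34.4% and 32.2%). After removal of the GC and length trend, 4 were higher and 1 lower in CRLM1_NC against Antisense_NC. Against Ctrl_NC, 3 were then higher in CRLM1_NC, and 1 was higher and 3 lower in Antisense_NC. KRT8 measured 2710, 2750 and 2540 CPM in Ctrl_NC, 3070, 2990 and 2990 CPM in CRLM1_NC and 1740, 1680 and 1840 CPM in Antisense_NC. No library overlapped another group: CRLM1_NC was the highest and Antisense_NC the lowest. KRT8 was 1.12-fold higher in CRLM1_NC than in Ctrl_NC (log2 0.16, SE 0.027, adjusted p = 7.47e-06), 1.56-fold lower in Antisense_NC (log2 -0.64, SE 0.033, adjusted p = 7.12e-19) and 1.75-fold higher in CRLM1_NC than in Antisense_NC (adjusted p = 9.27e-23). KRT18 and KRT19 had the same order of groups, also without overlap in CPM. Their log2 fold changes against Ctrl_NC were 0.21 and 0.31 in CRLM1_NC and -0.29 and -0.27 in Antisense_NC. In FPKM, KRT18 in Antisense_NC (317.92, 336.32 and 344.87) overlapped Ctrl_NC (345.3, 348.42 and 342.48), whereas KRT19 did not. After removal of the GC and length trend, KRT19 in Antisense_NC was at -0.014 and no longer called, and by limma-trend on log2(FPKM + 1) KRT18 in Antisense_NC was at -0.053 and not called. Together the 3 genes took 0.728% ± 0.0107 of all CRLM1_NC counts, 0.585% ± 0.0143 of those of Ctrl_NC and 0.49% ± 0.0156 of those of Antisense_NC (SD, n = 3). KRT80, a type II keratin, was at 19.1, 18.6 and 23.4 CPM in Ctrl_NC, at 21.4, 18.2 and 23.2 CPM in CRLM1_NC and at 11.2, 11.5 and 10.2 CPM in Antisense_NC. Antisense_NC lay below the other groups, which overlapped. The log2 fold change of KRT80 was -0.93 in Antisense_NC against Ctrl_NC (adjusted p = 1.05e-09) and 0.96 in CRLM1_NC against Antisense_NC (adjusted p = 8.03e-10).

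Among regulators and other identity genes, GALNT3, an enzyme that starts O-linked glycosylation of proteins, was the most raised member in CRLM1_NC. It measured 2.74, 2.89 and 2.65 FPKM in Ctrl_NC, 6.01, 5.59 and 5.86 FPKM in CRLM1_NC and 8.78, 9.03 and 8.68 FPKM in Antisense_NC. The groups were separate, with narrow spread in each. GALNT3 was 2.00-fold higher in CRLM1_NC (log2 1.00, SE 0.085, adjusted p = 1.83e-12) and 2.72-fold higher in Antisense_NC (log2 1.44, SE 0.078, adjusted p = 1.66e-18) than in Ctrl_NC. CDX2, which drives intestinal identity, was at 6.71, 5.08 and 6.69 CPM in Ctrl_NC, at 7.28, 7.85 and 6.91 CPM in CRLM1_NC and at 15.7, 16.3 and 13.7 CPM in Antisense_NC. Antisense_NC stood clear of both other groups. CDX2 was 2.43-fold higher in Antisense_NC than in Ctrl_NC (log2 1.28, SE 0.13, adjusted p = 3.9e-11) and 2.04-fold lower in CRLM1_NC than in Antisense_NC (adjusted p = 2.35e-09), with 0.25 for CRLM1_NC against Ctrl_NC (adjusted p = 0.226). GRHL2, a grainyhead-like activator of junction genes, was at 6.71, 6.6 and 4.28 CPM in Ctrl_NC and at 11.5, 12.8 and 12 CPM in Antisense_NC, a log2 difference of 1.02 (adjusted p = 8.09e-08).

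ELF3 and ST14 went down in both construct backgrounds. ELF3, an ETS factor of epithelia, was at 714, 758 and 732 CPM in Ctrl_NC, at 543, 537 and 540 CPM in CRLM1_NC and at 464, 464 and 486 CPM in Antisense_NC. ST14, which encodes the membrane protease matriptase, was at 468, 472 and 465 CPM in Ctrl_NC, at 382, 376 and 377 CPM in CRLM1_NC and at 253, 246 and 248 CPM in Antisense_NC. In both genes the groups were separate and Antisense_NC was the lowest. The log2 fold changes against Ctrl_NC were -0.46 and -0.68 for ELF3 (adjusted p = 8.62e-16 and 8e-20) and -0.32 and -0.95 for ST14 (adjusted p = 1.84e-11 and 4.47e-24). ST14 was higher in CRLM1_NC than in Antisense_NC by 0.63 (adjusted p = 6.72e-18). The splicing regulators ESRP1 and ESRP2 were higher in Antisense_NC than in Ctrl_NC by 0.46 and 0.17. The call for ESRP2 was lost in 6 of 15 alternatives, namely DESeq2, the single fit of 18 libraries and the fits without replicate 1 or 2 of Antisense_NC or replicate 1 or 3 of Ctrl_NC (adjusted p up to 0.509).

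**Figure D3:**
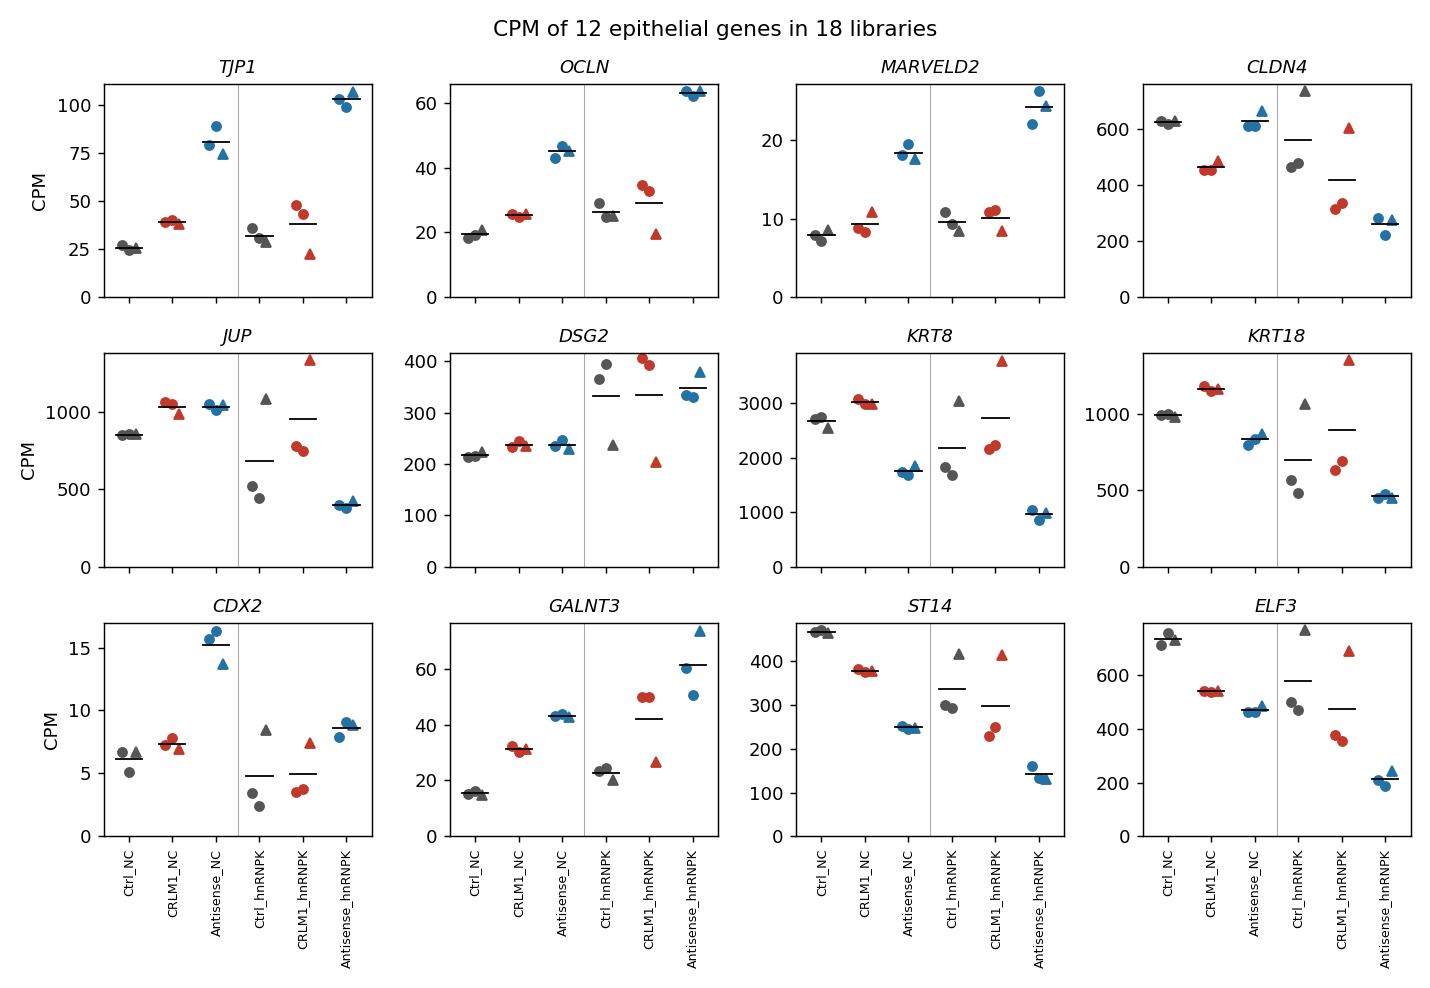
CPM in each of the 18 libraries for 12 members, by group, with bars at the group mean and triangles for the third replicate. The third CRLM1_hnRNPK library, and for most of these genes the third Ctrl_hnRNPK library, lies apart from the other 2 libraries of its group.

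The second question was what the hnRNPK plasmid changed in each background. In Antisense cells 31 of 36 members were called. JUP, CLDN4, ELF3, LSR and MUC1 fell at least 2-fold, while KRT23, ESRP1 and DSG2 rose the most. With all libraries, 12 of 36 members were higher (33.4% of all genes) and 19 were lower (30.5% of all genes), the median being -0.41 over the members and 0.041 over all genes. The 2-fold threshold was passed by 5 of 36 members and by 13.4% of all genes. Without the third library, 11 were higher (31% of all genes) and 20 lower (31.3% of all genes), with DSP no longer called (0.12, adjusted p = 0.162) and CTNND1 then called as lower (-0.25, adjusted p = 0.00874).

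JUP fell from 1050, 1010 and 1040 CPM in Antisense_NC to 396, 378 and 427 CPM in Antisense_hnRNPK, a 2.59-fold decrease (log2 -1.37, SE 0.080, adjusted p = 8.71e-08). CLDN4 was at 612, 609 and 664 CPM before and at 283, 224 and 276 CPM with the plasmid (log2 -1.27, SE 0.095, adjusted p = 1.47e-07). No library of one group reached the other group in either gene. LSR measured 571, 579 and 607 CPM in Antisense_NC and 274, 249 and 277 CPM in Antisense_hnRNPK (log2 -1.14, adjusted p = 1.02e-07). ELF3 went from 464, 464 and 486 CPM to 208, 187 and 245 CPM (log2 -1.15, adjusted p = 2.37e-07). Both were again separate between the groups. MUC1 was low, at 2.02, 2.29 and 2.53 CPM against 0.786, 0.713 and 1.15 CPM, from 47, 55 and 50 counts against 21, 22 and 30 counts (log2 -1.38, SE 0.28, adjusted p = 0.000675).

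The keratins of simple epithelia fell with these genes, although for KRT19 the call was lost after removal of the GC and length trend (0.069). KRT8 measured 1740, 1680 and 1840 CPM in Antisense_NC and 1040, 862 and 993 CPM in Antisense_hnRNPK, and KRT18 measured 797, 833 and 868 CPM against 447, 478 and 451 CPM. Each was lower by a log2 fold change of -0.87 (adjusted p = 1.67e-06 and 5.99e-07) without overlap of the groups, and the share of counts in KRT8, KRT18 and KRT19 was 0.361% ± 0.024 in Antisense_hnRNPK (SD, n = 3). KRT23, a type I keratin, rose instead, from 7.42, 7.65 and 8.2 CPM to 13.1, 15.8 and 10.9 CPM (log2 0.77, SE 0.15, adjusted p = 0.000452). ESRP1, which favours epithelial splice forms, went from 179, 189 and 168 CPM to 262, 320 and 269 CPM (log2 0.66, adjusted p = 2.11e-05). DSG2, a desmosomal cadherin, was at 235, 247 and 229 CPM before and at 334, 330 and 380 CPM with the plasmid (log2 0.55, adjusted p = 3.41e-05). By role, 1 adherens gene was higher and 1 lower, 4 tight junction genes were higher and 7 lower, 3 desmosome genes were higher and 2 lower, 1 keratin was higher and 4 lower, and 3 regulators were higher and 5 lower, where 33.4% of all genes were higher and 30.5% lower. After removal of the GC and length trend the higher and lower counts were 0 and 2 for adherens, 0 and 4 for tight junction, 1 and 2 for desmosome, 1 and 2 for keratin and 1 and 2 for regulator genes.

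The GC content of the transcripts moved with these differences. Across all genes the log2 fold change of Antisense_hnRNPK against Antisense_NC had a Spearman correlation of -0.712 with the GC content of the longest transcript (14337 genes), and across the 36 tested members it was -0.765, given as descriptions over genes that share the same libraries. Of the 12 higher members 11 had under 50% GC, and of the 19 lower members 17 had over 50%. After removal of the trend with GC and length, 3 members were higher (19.3% of all genes) and 12 were lower (20.6% of all genes), with medians of -0.12 over the members and 0.019 over all genes. JUP (-0.70), CLDN4 (-0.75), ELF3 (-0.70), LSR (-0.41), MUC1 (-0.88), KRT8 (-0.43), KRT18 (-0.49) and KRT23 (0.86) were still called. DSG2 was then at 0.03 and ESRP1 at 0.22, neither called, and PKP3, plakophilin-3, turned from -0.48 to 0.33 and CLDN12 from 0.33 to -0.31, both called in both fits. Between backgrounds the same correlation was weaker. Over all genes and over members it was -0.301 and -0.326 for Antisense_NC against Ctrl_NC. For CRLM1_NC it was 0.288 and 0.221 against Antisense_NC, and -0.161 and -0.328 against Ctrl_NC. The part of GC content in the differences with hnRNPK or between backgrounds was not tested.

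**Figure D4:**
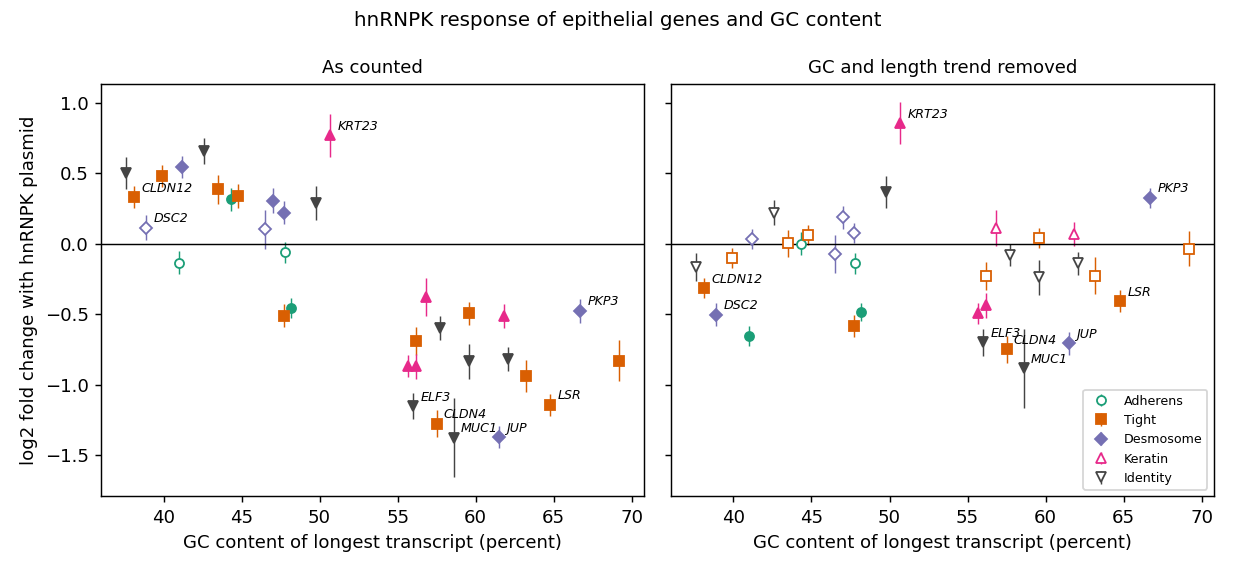
Log2 fold change of Antisense_hnRNPK against Antisense_NC (vertical axis, bars are standard errors) against the percent GC of the longest transcript, for the tested members except VIL1, as counted (left) and with the GC and length trend removed (right). Colours and shapes mark roles and filled points have an adjusted p of at most 0.05. On the left members under 50% GC lie mostly above 0 and those over 50% mostly below, and on the right JUP, CLDN4, ELF3 and MUC1 are still below 0 and KRT23 above.

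In Ctrl cells, no member was called with all libraries. By edgeR, 0% of the 14607 genes tested were called and 0 of 35 members, with 7 members at an unadjusted p under 0.05 and a smallest adjusted p over all genes of 0.32, and DESeq2 and limma-trend on FPKM also gave 0 members. Without the third Ctrl_hnRNPK library, 10 of 35 members were higher (29.6% of all genes) and 17 were lower (29.9% of all genes), with medians of -0.12 over the members and 0.026 over all genes. The library therefore decides whether any call is made. CDX2 was at 6.71, 5.08 and 6.69 CPM in Ctrl_NC and at 3.46, 2.39 and 8.44 CPM in Ctrl_hnRNPK, KRT18 at 990, 1000 and 981 CPM against 564, 479 and 1060 CPM, and LSR at 807, 776 and 797 CPM against 481, 410 and 812 CPM. In each of these genes the third library was above every Ctrl_NC library and the other 2 were below. Without it the log2 fold changes were -1.07 for CDX2 (adjusted p = 0.000468), -0.93 for KRT18 (adjusted p = 4.59e-09) and -0.83 for LSR (adjusted p = 1.34e-08), and with it -0.42, -0.54 and -0.52 (adjusted p = 0.519, 0.335 and 0.33).

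The members that rose most without that library were DSG2, CLDN12 and GALNT3. DSG2 was at 214, 216 and 223 CPM in Ctrl_NC and at 366, 394 and 238 CPM in Ctrl_hnRNPK. CLDN12, a claudin, was at 70.3, 65.7 and 73.3 CPM against 115, 112 and 80.8 CPM, and GALNT3 at 15.5 ± 0.705 CPM (SD, n = 3) against 23.5, 24.6 and 20.1 CPM. For these genes all 3 hnRNPK libraries were above Ctrl_NC, the third the least. Their log2 fold changes were 0.80, 0.70 and 0.63 without the third library (adjusted p = 4.58e-09, 2.03e-07 and 7.12e-05), and 0.57, 0.52 and 0.52 with it (adjusted p = 0.32 each). With the GC and length trend also removed, DSG2 (0.28) and KRT18 (-0.53) were still called. CLDN12 (0.045), GALNT3 (-0.037) and CDX2 (-0.53, adjusted p = 0.0842) were not. In that fit 14 members were called in all, and the share of all genes called is not given here.

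CRLM1 cells gave a like picture. With all libraries edgeR called 0% of 14394 genes and 0 of 35 members, with 2 members at an unadjusted p under 0.05 and a smallest adjusted p over all genes of 0.533, and DESeq2 and limma-trend on FPKM gave 0 members as well. Without the third CRLM1_hnRNPK library, 14 of 35 members were higher (29.5% of all genes) and 16 were lower (29.1% of all genes), with medians of 0.017 over the members and 0.00092 over all genes. CDX2 was at 7.28, 7.85 and 6.91 CPM in CRLM1_NC and at 3.55, 3.76 and 7.45 CPM in CRLM1_hnRNPK, CLDN3 at 7.19, 7.53 and 7.83 CPM against 4.2, 4.15 and 10.8 CPM, and KRT18 at 1180, 1150 and 1160 CPM against 632, 688 and 1350 CPM. The first and second hnRNPK libraries were below CRLM1_NC for each gene, whereas the third was within CRLM1_NC for CDX2 and above it for CLDN3 and KRT18. The log2 fold changes without it were -0.97 for CDX2 (adjusted p = 6.01e-05), -0.81 for CLDN3 (adjusted p = 0.000323) and -0.78 for KRT18 (adjusted p = 1.44e-13), and with it -0.56, -0.22 and -0.37 (adjusted p = 0.544, 0.8 and 0.608).

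DSG2, CLDN12 and GALNT3 were again the most raised. DSG2 was at 233, 244 and 235 CPM in CRLM1_NC and at 406, 393 and 204 CPM in CRLM1_hnRNPK, CLDN12 at 66.3, 65.7 and 59.8 CPM against 108, 101 and 50.8 CPM, and GALNT3 at 32.5, 30.3 and 31.3 CPM against 49.8, 49.8 and 26.7 CPM. The third library was below every CRLM1_NC library in all 3 genes, opposite to the other 2. Without it the log2 fold changes were 0.79, 0.74 and 0.70 (adjusted p = 6.81e-14, 5e-11 and 8.58e-09), and with it 0.53, 0.48 and 0.46 (adjusted p = 0.544, 0.564 and 0.556). With the GC and length trend removed as well, 12 members were called, among them DSG2 (0.29) and KRT18 (-0.46). CLDN12 (0.13), GALNT3 (0.069), CLDN3 (-0.089) and CDX2 (-0.49, adjusted p = 0.0531) were not called. The share of all genes called in that fit is not given here either. All 10 higher members in Ctrl cells and all 14 in CRLM1 cells had under 50% GC, and 15 of 17 and 15 of 16 lower members had over 50%, in the fits without the third library. Across all genes, the Spearman correlation of the log2 fold change with GC was -0.74 in Ctrl cells and -0.759 in CRLM1 cells in those fits.

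**Figure D5:**
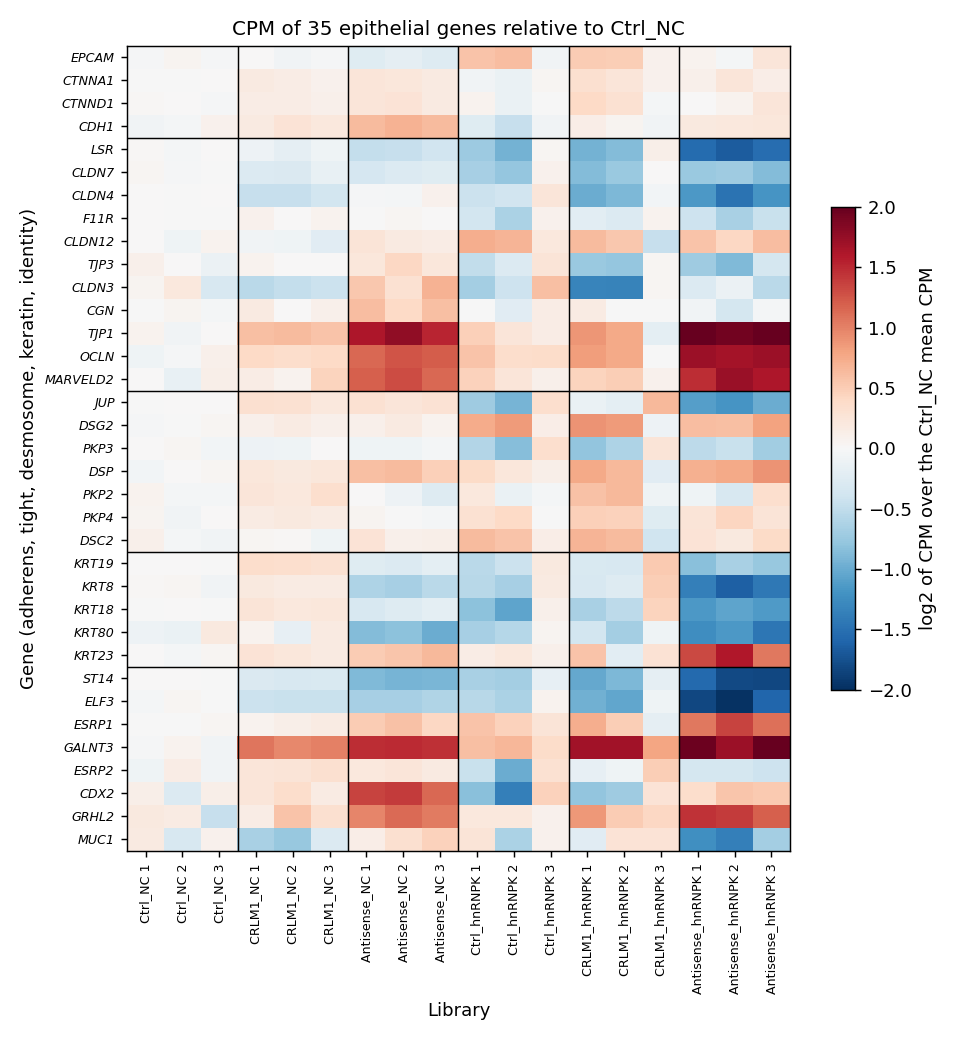
Log2 of CPM over the Ctrl_NC mean CPM for the 35 tested members (rows, by role) in each of the 18 libraries (columns), with colours limited to 2 in either direction. The third Ctrl_hnRNPK and CRLM1_hnRNPK columns differ from the first and second of their groups, and the Antisense_hnRNPK columns hold deep decreases, among them ELF3, ST14, LSR and KRT8.

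Whether the hnRNPK plasmid acted differently between backgrounds was tested with an interaction term. For CRLM1 against Ctrl with all libraries, edgeR called 0% of 15188 genes and 0 of 35 members, with 0 members at an unadjusted p under 0.05, and DESeq2 called 0. Without the third libraries 3 of 35 members were higher (3.36% of all genes) and 0.0904% of all genes were lower, with no member among them (12 members had an unadjusted p under 0.05 in either direction). JUP was the first, since it fell by less in CRLM1 cells (log2 -0.40) than in Ctrl cells (log2 -0.82), a difference of 0.45 (SE 0.080, adjusted p = 0.00188). With the GC and length trend removed as well, JUP was instead higher in CRLM1 cells (0.14, adjusted p = 0.0164) and lower in Ctrl cells (-0.23, adjusted p = 0.00457), with a difference of 0.38 (adjusted p = 0.00988). The catenins CTNND1 and CTNNA1 were the others, with differences of 0.32 (adjusted p = 0.0263) and 0.31 (adjusted p = 0.0148), and the call for CTNNA1 was lost after removal of the GC and length trend (0.23, adjusted p = 0.0852). With all libraries the differences were 0.23 for JUP, 0.16 for CTNND1 and 0.17 for CTNNA1 (adjusted p = 1 each). All 3 encode proteins of cadherin complexes, a role for which members were chosen by name. CDH1, the cadherin itself, was not called for this interaction in any fit.

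For Antisense against Ctrl with all libraries, edgeR called 0% of 15346 genes and 0 of 36 members, with 9 members at an unadjusted p under 0.05 and a smallest adjusted p over all genes of 0.0652, and DESeq2 called 1 member. With the GC and length trend removed and all libraries kept, CLDN4, JUP, ELF3 and DSC2 were called. Without the third libraries 1 of 36 members was higher (6.58% of all genes) and 11 were lower (9.47% of all genes). The member that was higher was KRT23 (0.71, SE 0.21, adjusted p = 0.0254). MUC1 had a difference of -1.48 (SE 0.45, adjusted p = 0.0274), CLDN4 of -0.91 (SE 0.11, adjusted p = 1.31e-05) and TJP3, the ZO-3 scaffold, of -0.72 (SE 0.14, adjusted p = 0.000865). JUP and ELF3 also fell further in Antisense cells, by differences of -0.60 and -0.66 (adjusted p = 0.000259 and 8.18e-05). With the GC and length trend removed as well, all 6 of these members kept their call. With all libraries and no such removal their differences were 0.61 for KRT23, -1.32 for MUC1, -1.11 for CLDN4, -0.79 for TJP3, -1.04 for JUP and -0.80 for ELF3, with adjusted p from 0.103 to 0.255.

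A wider list of 64 other epithelial genes, 61 of them in the table, was counted in the same fits. In CRLM1_NC against Ctrl_NC 16 of 45 tested genes were higher and 7 lower, where 16.9% and 17.4% of all genes were. In Antisense_NC against Ctrl_NC 26 and 15 of 47 were, beside 34.4% and 32.2% of all genes, and in CRLM1_NC against Antisense_NC 17 and 17 of 47, beside 26.9% and 29.5% of all genes. NECTIN4, an adherens junction adhesion molecule, was at 1.34 ± 0.483 CPM in Ctrl_NC, at 2.32 ± 0.286 CPM in CRLM1_NC and at 7.84 ± 0.426 CPM in Antisense_NC (SD, n = 3), with a log2 fold change of 2.50 in Antisense_NC against Ctrl_NC (adjusted p = 2.18e-13). The claudin gene CLDN23 was low throughout, at 0.379 ± 0.0601 CPM in Ctrl_NC and 1.2 ± 0.392 CPM in Antisense_NC (log2 1.62, adjusted p = 0.00074). CLDN15, another claudin gene, was at 2.38 ± 0.491 CPM in Ctrl_NC and 4.55 ± 0.431 CPM in CRLM1_NC (log2 0.91, adjusted p = 0.000816). All 4 other tested desmosome genes were lower in Antisense_NC than in Ctrl_NC, whereas 7 of 9 other adherens and 8 of 13 other tight junction genes were higher (32.2% of all genes were lower and 34.4% higher). After removal of the GC and length trend, 2 of the 4 desmosome genes were called as lower, and 6 of 9 and 7 of 13 of the others as higher.

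With the hnRNPK plasmid, 12 of 47 genes of the wider list were higher and 18 lower in Antisense cells, where 33.4% and 30.5% of all genes were. PRSS8, the membrane protease prostasin, which acts with matriptase, was at 232 ± 15.6 CPM in Antisense_NC and 69.3 ± 14.3 CPM in Antisense_hnRNPK (log2 -1.75, adjusted p = 1.4e-07). GRHL3, a relative of GRHL2, was at 2.46 ± 0.203 and 0.784 ± 0.118 CPM (log2 -1.66, adjusted p = 9.35e-05). Without the third libraries, 14 were higher and 18 lower of 46 in Ctrl cells (29.6% and 29.9% of all genes), and 15 were higher and 17 lower of 48 in CRLM1 cells (29.5% and 29.1% of all genes).

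Some members share reads with other genes, and the strand used in counting was not stated. KRT8 and KRT18 share 525 exonic bases on opposite strands, and the table names 19 pseudogenes of KRT8 and 17 of KRT18. CLDN7 shares 269 exonic bases with RP1-4G17.5 and F11R shares 1853 with RP11-544M22.13. ESRP2 overlaps NFATC3, TJP3 overlaps APBA3, CLDN12 overlaps GTPBP10 and VIL1 overlaps USP37, so the levels of these genes are uncertain to the extent that reads were split between them.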

How the data were processed

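The authors trimmed reads with FASTX-Toolkit, aligned them with TopHat2, allowing 4 mismatches, to GRCh38 with Gencode release 23, and deposited counts of uniquely mapped reads per gene, whole numbers without normalization. The authors also deposited FPKM values, counts divided by exon length and mapped reads. Libraries were made with the KAPA RNA HyperPrep kit, and strand use in counting is not given in the sources used here. Unique mapping loses reads of genes that have near-identical copies, and without molecular identifiers errors cover read counting and replicate spread only.

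Counts were tested in R 4.3.3 with edgeR 4.0.16 (TMM, filterByExpr, robust quasi-likelihood F-test, two-sided), each comparison on the libraries of its 2 groups and each of 2 interactions on 4 groups, adjusting p by Benjamini-Hochberg over the genes tested. A gene was called at an adjusted p of at most 0.05, and the 2-fold count also needed a ratio of 2 or more, or of 0.5 or less. SE, and each standard error bar, is the absolute log2 fold change divided by the square root of its quasi-likelihood F statistic. The study left out the third hnRNPK library of the Ctrl and CRLM1 backgrounds because of its profile; here all libraries entered the fits and counts without the third hnRNPK library of every group are given beside them. Alternatives were RLE factors, no filter, DESeq2 1.42.0, a single fit of 18 libraries, limma 3.58.1 on log2(FPKM + 0.1) and log2(FPKM + 1) for genes over 0.1 FPKM, loess offsets for GC content and length (span 0.3, longest transcripts of Gencode release 44), a replicate block and leaving out each library. The method was tested on simulated data.

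The members, lists and tests were chosen with earlier results of these data known. Named with values were members called with at least a 2-fold change and up to 3 highest and 3 lowest called members per comparison, from the fit without the third hnRNPK library where none was called with all libraries, up to 2 other epithelial genes of each comparison between backgrounds and of Antisense_hnRNPK against Antisense_NC, and further members for their role, chosen after their values were seen. One gene that this rule names is not reported here. Coordinates are from Gencode release 44 and promoter windows from RefSeq, both on GRCh38.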

Additional observations from a re-analysis of the deposited data

How the results depend on the processing

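The calls depended on the third hnRNPK library, on GC content and on whether all 18 libraries were fitted together. Without the third hnRNPK library the number of members called went from 0 to 27 in Ctrl cells and from 0 to 30 in CRLM1 cells. Calls over all genes went likewise from 0% to 29.6% higher and 29.9% lower in Ctrl cells, and to 29.5% and 29.1% in CRLM1 cells. The CRLM1 and Antisense interactions went from 0 to 3 and 12 members, beside 3.36% higher and 0.0904% lower, and 6.58% and 9.47%, of all genes. With the GC and length trend removed as well (an alternative chosen after seeing the data), the members called numbered 14, 12, 2 and 14, and 20 in Antisense cells. Removal of the trend alone gave 15 members in Antisense cells, where 19.3% of all genes were higher and 20.6% lower. It gave 4 in the Antisense interaction, where no filter gave 4 and DESeq2 gave 1. A single fit of all 18 libraries gave 1 for CRLM1_NC against Ctrl_NC (102 of all 15668 genes tested), 12 for CRLM1_NC against Antisense_NC, 16 for Antisense_NC against Ctrl_NC and 20 for Antisense_hnRNPK against Antisense_NC. The cause was not tested. Leaving out 1 library at a time gave 28 to 31 members called in Antisense_hnRNPK against Antisense_NC, 26 to 29 in Antisense_NC against Ctrl_NC, 24 to 26 in CRLM1_NC against Antisense_NC, 19 to 22 in CRLM1_NC against Ctrl_NC, 0 to 27 in Ctrl_hnRNPK against Ctrl_NC, 0 to 30 in CRLM1_hnRNPK against CRLM1_NC, 0 to 7 in the Antisense interaction and 0 in the CRLM1 interaction, and the highest values of Ctrl_hnRNPK against Ctrl_NC, CRLM1_hnRNPK against CRLM1_NC and the Antisense interaction came without replicate 3 of Ctrl_hnRNPK, CRLM1_hnRNPK and Ctrl_hnRNPK. Where no share of all genes stands beside a count in this section, the count does not set the members apart from other genes. Depth limits MUC1 (at most 55 counts in any library), CLDN1, KRT20 and VIL1.

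Within the 6 comparisons of 2 groups, libraries with the same replicate number did not deviate together (correlations from -0.0686 to 0.0337). The hnRNPK groups were not set against each other in this way. The third libraries of Ctrl_hnRNPK and CRLM1_hnRNPK both stood apart from their groups, so a shared deviation of hnRNPK libraries by number was not tested. The replicate block gave 20, 28, 28 and 29 members called in CRLM1_NC against Ctrl_NC, CRLM1_NC against Antisense_NC, Antisense_NC against Ctrl_NC and Antisense_hnRNPK against Antisense_NC, and 0 in the other comparisons, and with the GC and length trend removed it gave 16 in Antisense cells and 4 in the Antisense interaction.

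Log2 fold changes are in brackets. In CRLM1_NC against Antisense_NC the direction turned by limma-trend on log2(FPKM + 0.1) for JUP (-0.14), PKP3 (-0.13), DSG2 (-0.14), by limma-trend on log2(FPKM + 1) for JUP (-0.14), PKP3 (-0.13), DSG2 (-0.13), with the GC and length trend removed for CTNND1 (0.16), PKP3 (-0.14), with that trend removed and the replicate block for CTNND1 (0.16), JUP (-0.067), PKP3 (-0.14). In Antisense_NC against Ctrl_NC the direction turned by limma-trend on log2(FPKM + 0.1) for CLDN4 (0.21), F11R (0.21), PKP3 (0.12), PKP4 (0.20), by limma-trend on log2(FPKM + 1) for CLDN4 (0.20), F11R (0.20), PKP3 (0.12), PKP4 (0.16), with the GC and length trend removed for CTNND1 (-0.13), CLDN12 (-0.18), PKP3 (0.17), DSG2 (-0.23), DSC2 (-0.17), with that trend removed and the replicate block for CTNND1 (-0.13), CLDN12 (-0.18), PKP3 (0.17), DSG2 (-0.23), DSC2 (-0.17). In Ctrl_hnRNPK against Ctrl_NC the direction turned without the third hnRNPK library and with that trend removed for TJP3 (0.25), CGN (0.30). In CRLM1_hnRNPK against CRLM1_NC the direction turned without the third hnRNPK library for TJP1 (0.26), without the third hnRNPK library and with that trend removed for CTNND1 (-0.24), CGN (0.37), JUP (0.14). In Antisense_hnRNPK against Antisense_NC the direction turned with the GC and length trend removed for CLDN7 (0.041), CLDN12 (-0.31), OCLN (-0.10), PKP3 (0.33), DSC2 (-0.50), KRT19 (0.069), KRT80 (0.11), GALNT3 (-0.16), with that trend removed and the replicate block for EPCAM (-0.0014), CLDN7 (0.041), CLDN12 (-0.31), OCLN (-0.10), PKP3 (0.33), DSC2 (-0.50), KRT19 (0.066), KRT80 (0.11), GALNT3 (-0.17), without the third hnRNPK library and with that trend removed for EPCAM (-0.074), CLDN3 (0.048), CLDN7 (0.073), CLDN12 (-0.32), OCLN (-0.073), PKP3 (0.37), DSG2 (-0.0023), DSC2 (-0.52), KRT19 (0.054), KRT80 (0.18), GALNT3 (-0.27). In the Antisense against Ctrl interaction the direction turned without the third hnRNPK library and with that trend removed for CLDN7 (0.28), PKP3 (0.38). In CRLM1_hnRNPK against CRLM1_NC, TJP1 ran from -0.22 to 0.26 when 1 library was left out, the highest without CRLM1_hnRNPK replicate 3.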
